A study of Mus musculus with 2 samples.

Results

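Pacsin2, Clmp, Nrip3, Rad51ap2 and Itgav are 5 of the 33696 genes counted in single nuclei of the mouse hippocampus. They were chosen by gene symbol because their counts were lower in dentate granule nuclei of a library labelled Cic knockout than in those of its control. That granule difference is therefore given as a description only. The levels in immature granule, pyramidal, inhibitory and glial nuclei were not part of the choice. In the files the genes carry the identifiers ENSMUSG00000016664 (Pacsin2), ENSMUSG00000032024 (Clmp), ENSMUSG00000034825 (Nrip3), ENSMUSG00000086022 (Rad51ap2) and ENSMUSG00000027087 (Itgav).

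The study compared 2 genotypes at postnatal day 19, and its title names the connection from mossy fibers to CA3. The control group was Cicflox/flox and the other group was Emx1-Cre; Cicflox/flox, so both carried the floxed allele and only the second carried the recombinase. Each group was 1 library of nuclear RNA, pooled from 1 hippocampus of each of 3 littermates (2 males and 1 female), with a target of 20000 nuclei on a 10x 3′ GEM-X chip. Emx1-Cre recombines in the dorsal telencephalic lineage, which gives rise to the excitatory neurons and many of the macroglia of the hippocampus, while its interneurons and microglia arise elsewhere.

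Capicua, the product of Cic, is a transcriptional repressor that sits on short octamers near its target genes and is released by receptor tyrosine kinase signalling through Ras and ERK. Its best known targets include genes of the PEA3 group of ETS activators. Dentate granule neurons are born in part after birth, pass through an immature stage marked by Dcx, and send mossy fibers to the pyramidal neurons of CA3. The genes described here do not belong to 1 pathway. Pacsin2 (syndapin 2) is an F-BAR protein that bends membranes and links endocytosis to the actin cytoskeleton. Clmp is an adhesion molecule of the immunoglobulin superfamily, related to Cxadr, that is found at cell junctions. Itgav is the integrin alpha v chain, which pairs with beta chains such as Itgb1, Itgb3, Itgb5 and Itgb8 to bind vitronectin and latent TGF-beta. Nrip3 is named as a nuclear receptor interacting protein.

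Because each gene was chosen as lower in granule nuclei of the library labelled Cic knockout, the bases before the start sites were searched. The search was for the Capicua octamer and for an ETS octamer. RefSeq promoter windows (build GRCm38.p6) were found for 3 of the 5 genes, Pacsin2 (3 windows), Rad51ap2 (1) and Itgav (1). Each was read over the 250 bases before the start. None of these 5 windows held the Capicua octamer (TGAATGAA, TGAATGGA, TCAATGAA or TCAATGGA, both strands), which was present in 1048 of all 32851 windows of that length (3.19%). None held CCGGAAGT, the ETS octamer searched on both strands, which was present in 945 windows (2.88%). After this result a shorter form was searched, the first 6 letters of the Capicua octamer (TGAATG or TCAATG, both strands, contained within the octamer). It stood at positions 34 and 174 of the window of Pacsin2 printed here, in none of the other 4 windows, and in 16.96% of all windows. The 3 sequences show what lies before a start of each gene, 5′ to 3′ on the gene's strand, with the matches to the shorter form in capitals. They are Pacsin2 at chr15:83432851-83433100 (minus strand), Rad51ap2 at chr12:11455805-11456054 (plus strand) and Itgav at chr2:83724147-83724396 (plus strand). A match or its absence in these letters says nothing of whether a factor binds.
Pacsin2: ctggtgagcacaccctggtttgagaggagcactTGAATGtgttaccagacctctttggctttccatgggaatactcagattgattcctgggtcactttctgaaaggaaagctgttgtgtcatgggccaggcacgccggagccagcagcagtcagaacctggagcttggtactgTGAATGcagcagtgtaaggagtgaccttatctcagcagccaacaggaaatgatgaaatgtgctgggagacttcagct
Rad51ap2: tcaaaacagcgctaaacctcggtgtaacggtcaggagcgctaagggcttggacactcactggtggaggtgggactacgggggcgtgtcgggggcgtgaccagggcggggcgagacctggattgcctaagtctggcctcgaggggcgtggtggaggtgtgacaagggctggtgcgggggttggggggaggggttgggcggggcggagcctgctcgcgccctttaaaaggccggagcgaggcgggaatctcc
Itgav: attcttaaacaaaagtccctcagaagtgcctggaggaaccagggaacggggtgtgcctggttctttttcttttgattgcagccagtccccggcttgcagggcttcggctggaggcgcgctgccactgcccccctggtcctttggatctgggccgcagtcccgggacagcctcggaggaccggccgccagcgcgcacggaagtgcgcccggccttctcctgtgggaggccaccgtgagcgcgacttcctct

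The libraries held 25907 (control) and 23207 (labelled knockout) nuclear barcodes with 314453640 and 252995761 UMIs (unique molecular identifiers, each a counted transcript), and 175 barcodes occurred in both. After filters and removal of called doublets, 21950 and 20666 nuclei were used, with medians of 9719 and 8693.5 UMIs. Clustering without the 5 genes, and naming by markers, gave 17 classes with at least 100 nuclei in each library. Their names end in "-like" because they rest on markers alone. Each group being 1 library, no replicate error can be given and nothing was tested. Every interval is a 95% interval for counting error only, and mice, dissection and library preparation cannot be told apart from genotype. Cic itself, the floxed gene, did not have fewer counts in the library labelled knockout. Granule-like nuclei held 526 of its UMIs in control and 534 in the other library, which is 9.15 and 12.7 CPM (a gene's UMIs scaled to a common total for every class and library). Its log2 ratio there was 0.47 (0.30 to 0.65), against 0.77 in CA3-like and -0.09 in inhibitory-like nuclei. Counts per gene do not resolve the floxed exons, so the count of Cic checks neither the deletion nor the label, and directions below refer to the labels. Etv4, of the PEA3 group, is named after its values were seen. It had 0.987 CPM (control) and 40.6 CPM (labelled knockout, 24 UMIs in 58 nuclei) in granule-like cluster 1, and 1.04 and 114 CPM in cluster 2.

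In dentate granule-like nuclei (4751 and 3840, control given before the library labelled knockout from here on where no library is named) the genes were 3.98-fold (Clmp) to 6.21-fold (Pacsin2) lower in the library labelled knockout. Pacsin2 had 1896 UMIs (33.0 CPM) in control and 223 UMIs (5.31 CPM) in the library labelled knockout, for a log2 ratio of -2.63 (-2.84 to -2.44). Itgav had 754 UMIs (13.1 CPM) and 103 UMIs (2.45 CPM), for a log2 ratio of -2.41 (-2.73 to -2.12). Rad51ap2 had 2249 UMIs (39.1 CPM) and 359 UMIs (8.54 CPM), for a log2 ratio of -2.19 (-2.36 to -2.03). Over 100 UMIs of each of these 3 genes, and of Nrip3 and Clmp below, were left in the library labelled knockout. Nrip3 had 1016 UMIs (17.7 CPM) and 173 UMIs (4.12 CPM), for a log2 ratio of -2.10 (-2.34 to -1.87). Clmp had 645 UMIs (11.2 CPM) and 118 UMIs (2.81 CPM), for a log2 ratio of -1.99 (-2.29 to -1.71). By a size rule (a minimum of 50 UMIs and 10 CPM on the higher side and a difference of at least 2-fold, which sorts genes by size and tests nothing), 88 of 8451 genes were lower in these nuclei (1.04%), the 5 chosen genes among them. Ordered by log2 ratio, Pacsin2 ranked 3, Itgav 5, Rad51ap2 6, Nrip3 8 and Clmp 11 from the lowest. The gene just after Clmp was Fmn1 at -1.98, and the genes below Pacsin2 were Brinp3 at -3.48 and Rasgrp1 at -2.77. They are named after their values were seen, to show that the choice was not a complete list of the lowest genes.

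The libraries differed in the share of granule-like nuclei with a UMI of each gene, which moves with the summed count. Pacsin2 was detected in 26.8% of control and 5.21% of knockout-labelled granule-like nuclei, and Rad51ap2 in 24.4% and 7.16%. Nrip3 was detected in 15.8% and 4.19%, Itgav in 10.3% and 2.29%, and Clmp in 10.2% and 2.53%. The class had median depths of 11611 (control) and 10499.5 UMIs. With every nucleus thinned to 2000 UMIs (3 and 10 nuclei were too shallow), the shares were 5.86% and 1.07% for Pacsin2 and 6.51% and 1.70% for Rad51ap2. They were 2.95% and 0.966% for Nrip3, 2.38% and 0.418% for Itgav, and 2.34% and 0.783% for Clmp, lower in the library labelled knockout for each gene. No UMI of any of the 5 genes was found in 41.7% of control and 80.4% of knockout-labelled granule-like nuclei, and UMIs of 3 or more of the genes in 5.60% and 0.104%. Up to 11 UMIs of Pacsin2 and 12 of Rad51ap2 were counted in 1 control nucleus, against at most 4 and 6 in the library labelled knockout.

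Free RNA, which can set a floor under these shares, was not measured, so levels in classes low in each gene are given instead. Rad51ap2 had 5 UMIs in 1518 control microglia-like nuclei and 0 UMIs in the 1499 of the library labelled knockout. It had 4 and 5 UMIs in 1216 and 990 oligodendrocyte-like nuclei (median 8150.5 and 8377.5 UMIs). In the library labelled knockout 359 UMIs were left in 3840 granule-like nuclei. In the library labelled knockout Clmp was detected in 0.707% of oligodendrocyte-like nuclei (median 8377.5 UMIs), its lowest share there, and in 0.770% of astrocyte-like nuclei, against 2.53% of granule-like nuclei. Nrip3 was lowest in control microglia-like nuclei, at 1.91% (median 2137.5 UMIs). With the UMIs per nucleus of each gene's lowest class in the same library subtracted, an alternative added after seeing the data, the granule log2 ratio was -2.50 for Nrip3 and -2.24 for Clmp. For Rad51ap2 nothing was subtracted, since its lowest class in both libraries was endothelial-like, with 0 UMIs in 119 and 142 nuclei. The lowest class of Nrip3 in the library labelled knockout was endothelial-like, with 2 UMIs. Pacsin2 and Itgav were lowest in immature granule-like nuclei, which are of the same lineage, so no such value is given for them.

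In the main clustering the granule-like class was itself made of different clusters in each library. Cluster 1 held 4303 control nuclei and 58 of the library labelled knockout, and cluster 2 held 448 and 3782. This split depended on the genes used. With the genes past the size rule in granule-like nuclei also left out, each granule-like cluster held both libraries. One had 2065 and 3153 nuclei and the other 2693 and 688. Of the 8 granule markers 1 (C1ql2, log2 ratio 0.49) was higher in the library labelled knockout in the granule-like class. Trpc6 was lower by the size rule (-1.69, 354 and 109 CPM). Plk5 was at -1.23 but lay under the CPM minimum (8.47 and 3.59 CPM), Stxbp6 was at -0.90 and Rfx3 at -0.33. Calb1 was at -0.24, Dsp at -0.16 and Prox1 at -0.14. Summed over the list, the markers had 4013 CPM in control and 2911 CPM in the library labelled knockout. Of the 8 immature granule markers 7 were higher, among them Dcx (0.88, 32.6 and 60.1 CPM) and Igfbpl1 (0.91), with sums of 458 and 487 CPM. Most of these sums came from Prox1 (351 and 318 CPM), which is on both lists and was the 1 marker not higher. The Cajal-Retzius list had 7.41 and 46.9 CPM, of which Reln had 3.43 and 36.0 CPM and Trp73 46 and 274 UMIs (0.800 and 6.52 CPM, for a log2 ratio of 3.01). Ndnf had 172 and 170 UMIs, while Lhx1, Lhx5 and Ebf3 had at most 6 UMIs in either library. The microglia list had 82.9 and 70.5 CPM, the oligodendrocyte list 194 and 149 CPM and the astrocyte list 240 and 293 CPM. Of the 6 astrocyte markers 2 were higher in the library labelled knockout, and the larger sum came from Slc1a2 (178 and 253 CPM), while Slc1a3 had 48.7 and 30.4 CPM. The part of these markers in the values of the 5 genes was not tested.

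A finer clustering (resolution 2, examined after the granule values had been seen) placed the genes along the granule series. Clusters 3 and 5 were immature and held both libraries, cluster 13 lay between them and the mature clusters in Dcx (131 CPM in control and 118 CPM in the library labelled knockout) and also held both (377 and 493 nuclei). Mature control nuclei made up clusters 2 and 7 (2661 and 1647 nuclei), and mature nuclei of the library labelled knockout clusters 1 and 23 (2747 and 539). These mature clusters were not alike in markers. Dcx was at 27.8 and 20.6 CPM in control clusters 2 and 7, against 51.2 and 63.5 CPM in knockout-labelled clusters 1 and 23. Trpc6 was at 293 and 488 against 106 and 153 CPM, while Calb1 was closer, at 171 and 155 against 140 and 161 CPM. In cluster 13 Pacsin2 was at 11.1 CPM in control and 10.6 CPM in the library labelled knockout, for a log2 ratio of -0.06 (-0.69 to 0.57). Clmp was lower there, at 19.8 and 10.1 CPM, for a log2 ratio of -0.96 (-1.54 to -0.42). For Nrip3 (12.1 and 7.54 CPM), Rad51ap2 (3.52 and 2.12 CPM) and Itgav (3.77 and 2.12 CPM) the log2 ratios were -0.67 (-1.37 to -0.00), -0.70 (-2.12 to 0.58) and -0.80 (-2.20 to 0.46). The libraries also differed in granule markers within cluster 13, with Trpc6 at 64.3 and 34.4 CPM, Calb1 at 116 and 77.5 CPM and Dsp at 16.6 and 29.9 CPM, and their part in these ratios was not tested. From cluster 13 to the mature clusters, the control level of Rad51ap2 went to 31.3 and 56.5 CPM and that of Pacsin2 to 26.4 and 45.8 CPM. In the library labelled knockout Rad51ap2 was at 9.53 and 7.83 CPM in the mature clusters and Pacsin2 at 4.16 and 5.31 CPM.

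**Figure D1:**
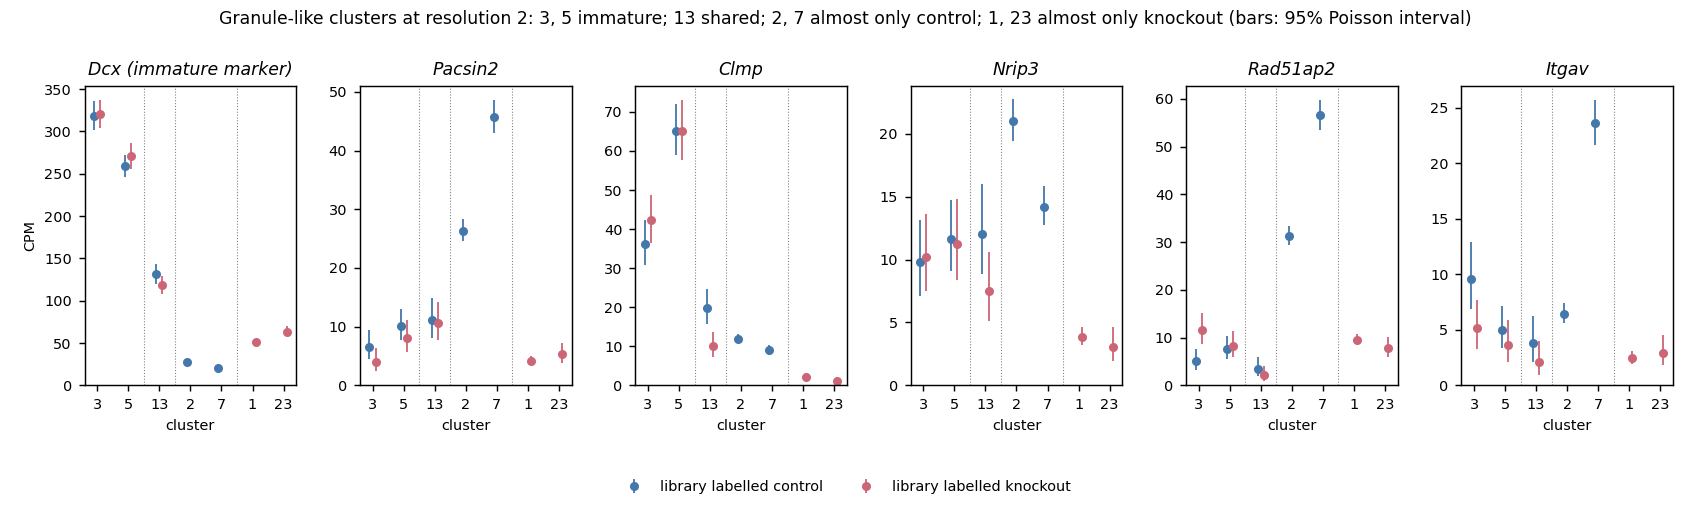
Level (CPM, linear axis from 0) of Dcx and of the 5 genes in granule-like clusters at resolution 2, one panel per gene. Points are 1 library in 1 cluster with at least 100 nuclei and bars are 95% Poisson intervals. In clusters 3, 5 and 13 the intervals of the ratio between libraries hold 0 for Pacsin2 and Rad51ap2, apart from Rad51ap2 in cluster 3, but are wide, and the genes reach 45.8 and 56.5 CPM only in control cluster 7.

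The 5 genes were not spread alike over the mature control nuclei. Cluster 7, led by Best3 and Trpc6, had more Itgav than cluster 2 (23.6 against 6.45 CPM, a log2 difference of 1.87, 1.63 to 2.12), more Rad51ap2 (0.85, 0.73 to 0.98) and more Pacsin2 (0.80, 0.66 to 0.93). It had less Nrip3 (14.2 against 21.04 CPM, -0.56, -0.76 to -0.37) and less Clmp (8.92 against 11.9 CPM, -0.42, -0.68 to -0.17). In the library labelled knockout the intervals of the difference between clusters 1 and 23 held 0 for each of the 5 genes. The comparison also changed when it was kept within cluster 2 of the coarser clustering, with its 448 control nuclei. There Rad51ap2 was higher in the library labelled knockout (3.96 against 8.47 CPM, for a log2 ratio of 1.06, 0.43 to 1.84), while Pacsin2 was at -1.35, Nrip3 at -1.69, Clmp at -2.69 and Itgav at -0.70 (-1.39 to 0.12). The control nuclei of that cluster had more of the immature markers Dcx (121 against 60.2 CPM), Igfbpl1 (94.1 against 50.9 CPM) and Sox11 (83.7 against 39.1 CPM) than those of the library labelled knockout, and less of the granule marker Dsp (19.6 against 65.3 CPM). They had slightly less of the granule markers Calb1 (124 against 137 CPM, with overlapping intervals) and Trpc6 (91.2 against 107 CPM), and more Prox1, which is on both lists (523 against 317 CPM). The part of these markers in the reversal was not tested.

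In immature dentate granule-like nuclei (2154 and 2330) the genes differed in direction. Each log2 ratio was closer to 0 than in granule-like nuclei, which choosing the genes on granule values made likely. Adcy1 was the 1 gene of 9562 that was lower by the size rule there (0.0105%), with 180 and 74 UMIs, and it is named after its value was seen. Of the 5 genes only Clmp and Nrip3 met the minimum there, and neither was lower. Clmp had 551 UMIs (52.9 CPM) in control and 481 UMIs (53.5 CPM) in the library labelled knockout, for a log2 ratio of 0.02 (-0.16 to 0.20), and Nrip3 had 113 and 96 UMIs (10.8 and 10.7 CPM), at -0.02 (-0.43 to 0.38). Pacsin2 had 90 and 56 UMIs, at -0.47 (-0.98 to 0.03), and Itgav 73 and 39 UMIs, at -0.68 (-1.29 to -0.11). Rad51ap2 was higher in the library labelled knockout, with 68 and 89 UMIs, at 0.60 (0.13 to 1.08), and after thinning it passed the size rule as higher. Between the immature and the mature class in control, Rad51ap2 was 5.95-fold higher in the mature, Pacsin2 3.80-fold, Itgav 1.86-fold and Nrip3 1.62-fold, and Clmp was 4.71-fold lower. In the library labelled knockout the same step was 0.859-fold for Rad51ap2, 0.846-fold for Pacsin2, 0.560-fold for Itgav and 0.384-fold for Nrip3, and Clmp was 19.0-fold lower. So 4 genes that were higher in mature than in immature control nuclei were not so in the library labelled knockout, and the gene already lower in mature nuclei was lower still. Both steps use the granule values on which the genes were chosen.

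Across the other classes each gene had an order of its own. In control, Pacsin2 was highest in microglia-like nuclei (244 CPM, 227 to 261), then in Cajal-Retzius-like (130 CPM, 109 to 154) and inhibitory-like nuclei (52.9 CPM, 49.7 to 56.2). Granule-like nuclei held rank 6 of 17 in control and rank 15 in the library labelled knockout, and the intervals of ranks 3 to 6 overlapped from each to the next. Itgav was highest in microglia-like (245 CPM, 228 to 262) and astrocyte-like nuclei (230 CPM, 221 to 240), which overlapped, then in oligodendrocyte precursor-like (166 CPM) and radial glia-like nuclei (142 CPM), with granule-like nuclei at rank 11 in control and 16 in the library labelled knockout. Pacsin2 and Itgav thus had the same highest class, which is not neuronal. Nrip3 was highest in CA2-like nuclei (158 CPM, 146 to 172), then in subicular (97.1 CPM) and CA3-like nuclei (94.1 CPM), which overlapped, and its granule rank went from 9 to 15. Clmp was highest in endothelial-like nuclei (100 CPM, 71.7 to 137, from 40 UMIs) and CA3-like nuclei (86.1 CPM, 82.8 to 89.5), which overlapped, then in inhibitory-like (72.5 CPM) and immature granule-like nuclei (52.9 CPM), and its granule rank went from 10 to 12. Rad51ap2 was highest in deep-layer excitatory-like nuclei (51.6 CPM, 47.6 to 55.8). Subicular (43.6 CPM), CA2-like (41.2 CPM) and granule-like nuclei (39.1 CPM) followed with overlapping intervals, then CA1-like nuclei (39.0 CPM). Its granule rank went from 4 to 8, and its glial levels lay between 0 and 8.79 CPM over both libraries.

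**Figure D2:**
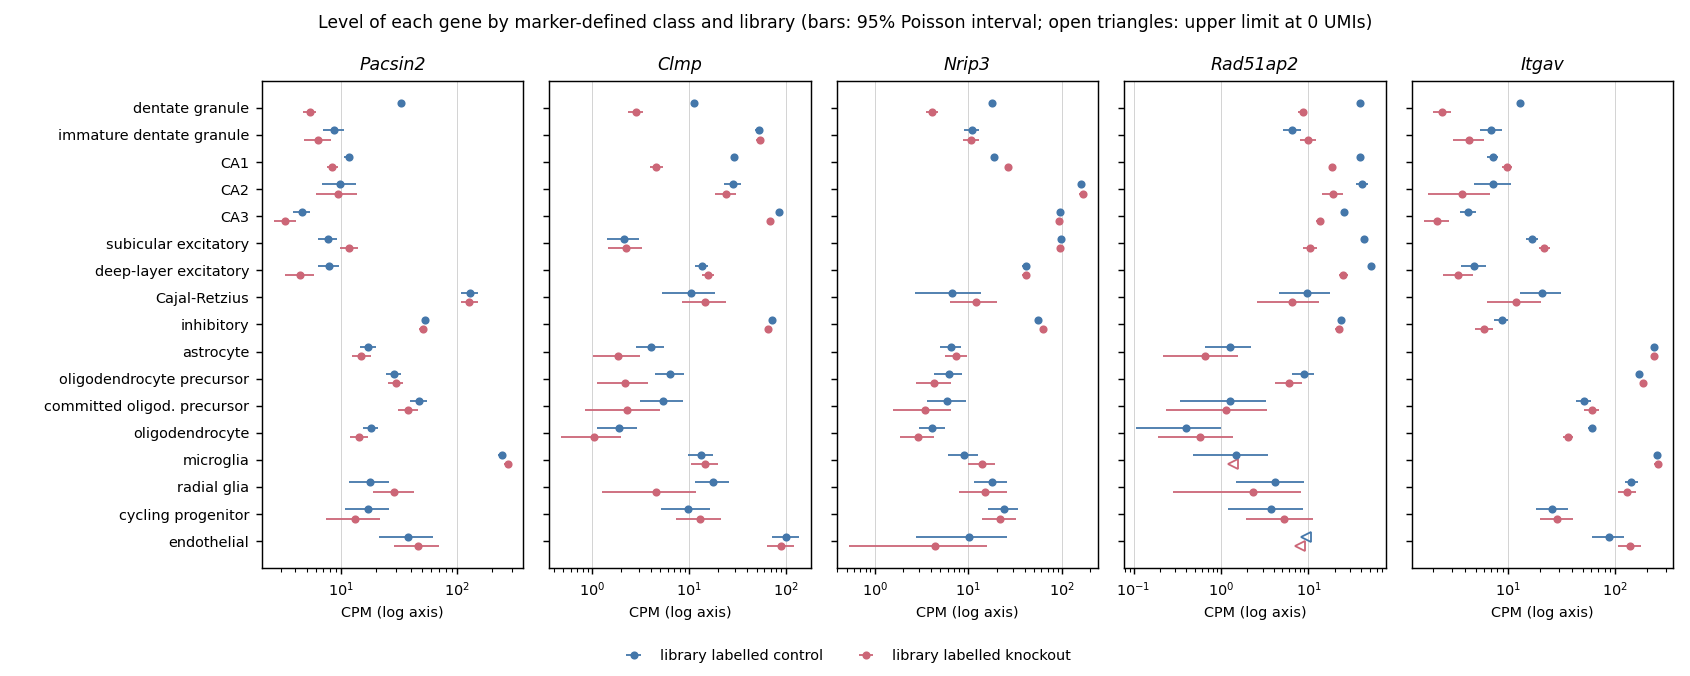
Level (CPM, log axis) of each gene in 17 classes in the control library (blue) and the library labelled knockout (red), with 95% Poisson intervals and open triangles for upper limits at 0 UMIs. The libraries stand apart for every gene in the granule row, and in the CA1 row, where Nrip3 and Itgav are higher in the library labelled knockout and the other 3 lower, and overlap for Pacsin2 and Itgav in the astrocyte row.

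Outside the granule class, 36 of the 80 combinations of gene and class met the minimum, and only these could be called. Of the 36, 5 were lower by the size rule, 1 of Clmp and 4 of Rad51ap2, and none was higher. In CA1-like nuclei (0.553% of 8320 genes lower) Clmp had 1344 UMIs (29.1 CPM) in control and 172 UMIs (4.58 CPM) in the library labelled knockout, for a log2 ratio of -2.66 (-2.91 to -2.44). Among neurons its level was highest in CA3-like nuclei (0.353% of genes lower), where Clmp had 2583 and 1711 UMIs (86.1 and 69.3 CPM), for a log2 ratio of -0.31 (-0.40 to -0.23). It was at -0.24 (-0.72 to 0.21) in CA2-like, 0.21 (-0.10 to 0.53) in deep-layer and 0.08 (-0.74 to 0.89) in subicular excitatory-like nuclei. The intervals of the Clmp ratio in CA1-like and CA3-like nuclei did not overlap.

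Rad51ap2 had an interval wholly below 0 in each of the 5 pyramidal and other excitatory classes. It had 617 and 120 UMIs (43.6 and 10.3 CPM) in subicular excitatory-like nuclei, for a log2 ratio of -2.07 (-2.37 to -1.79), where 0.755% of genes were lower. In CA1-like nuclei it had 1800 and 692 UMIs (39.0 and 18.4 CPM), at -1.08 (-1.21 to -0.95). It was at -1.11 (-1.60 to -0.65) in CA2-like nuclei (0.888% of genes lower) and -1.05 (-1.26 to -0.85) in deep-layer excitatory-like nuclei (0.233% of genes lower), with 157 and 51 UMIs in the former and 617 and 289 in the latter. CA3-like nuclei, with 768 and 337 UMIs, fell short of 2-fold at -0.91 (-1.10 to -0.72), but passed it under median-of-ratios scaling. The size call in 3 of these classes did not hold under every setting. The log2 ratio was -0.97 in CA1-like nuclei when the chosen genes were no longer kept out of the clustering, which let in Pacsin2 and Itgav alone, and -0.96 when 1000 genes per nucleus were required. In CA2-like nuclei it was -0.91 in males and -0.16 after thinning, and in deep-layer excitatory-like nuclei -0.57 in females and -0.52 after thinning.

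Nrip3 was near its control level in the 3 classes where it is highest and in deep-layer nuclei, though not in every cluster of other classes. It had 2822 and 2310 UMIs (94.1 and 93.5 CPM) in CA3-like nuclei, for a log2 ratio of -0.01 (-0.09 to 0.07). In CA2-like nuclei it was at 0.06 (-0.12 to 0.24), in subicular at -0.05 (-0.16 to 0.07) and in deep-layer excitatory-like nuclei at 0.01 (-0.18 to 0.19). In CA1-like nuclei it had 866 and 995 UMIs (18.8 and 26.5 CPM), at 0.50 (0.37 to 0.63), the opposite direction to granule-like nuclei. Pacsin2 and Itgav were at or below 21.96 CPM in these classes, the highest level being that of Itgav in subicular nuclei. Pacsin2 had 535 and 314 UMIs in CA1-like nuclei, at -0.47 (-0.68 to -0.27), 136 and 81 in CA3-like nuclei, at -0.46 (-0.88 to -0.06), 93 and 51 in deep-layer excitatory-like nuclei, at -0.82 (-1.34 to -0.31), and 108 and 136 in subicular excitatory-like nuclei, at 0.62 (0.24 to 1.00). Itgav had 333 and 367 UMIs in CA1-like nuclei, at 0.44 (0.22 to 0.66), a direction not shared by the 4 clusters with at least 100 nuclei in each library, and 128 and 54 in CA3-like nuclei, at -0.96 (-1.45 to -0.50). In subicular excitatory-like nuclei Itgav had 239 and 255 UMIs (16.9 and 21.96 CPM), at 0.38 (0.12 to 0.64).

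**Figure D3:**
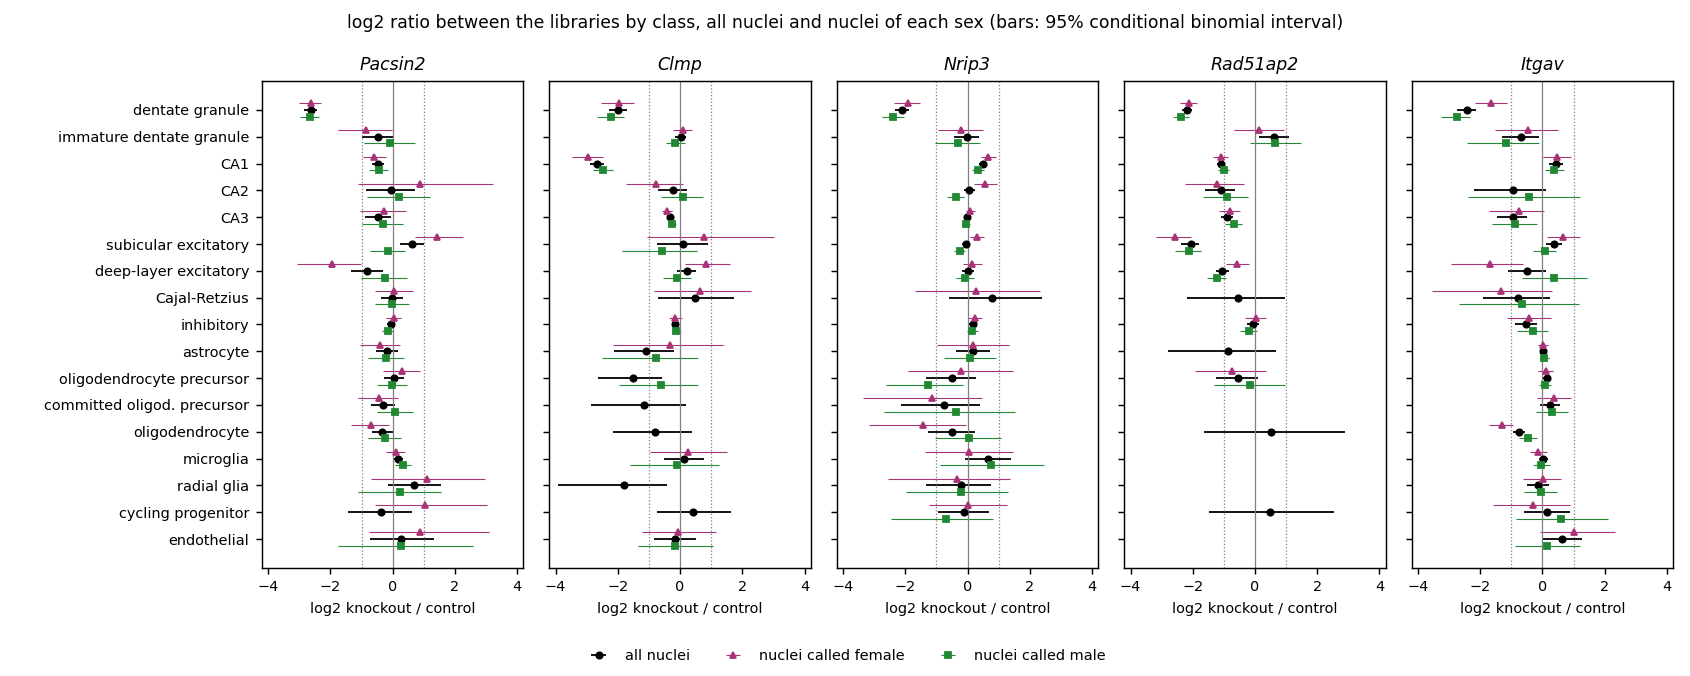
log2 ratio of the library labelled knockout over control for each gene and class, in all nuclei (black), nuclei called female (purple) and nuclei called male (green), where both libraries had more than 3 UMIs. Bars are 95% conditional binomial intervals and dotted lines mark 2-fold. Every gene lies left of the dotted line in the granule row, joined by Clmp and Rad51ap2 in the CA1 row in all nuclei, where Rad51ap2 is at -1.08. Points of other rows also lie left of it in all nuclei. Among them are Rad51ap2 in the subicular, CA2 and deep-layer rows and, from few UMIs, Clmp in the oligodendrocyte precursor and radial glia rows.

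Classes made of several clusters were also split, after these values had been seen, because the libraries filled them unequally. CA1-like cluster 8 held 1320 control nuclei and 8 of the library labelled knockout, and cluster 7 held 190 and 1355, while clusters 17, 21 and 28 held at least 105 of each. The name CA1-like rests on less in clusters 17 and 28, with 4 and 3 of the 7 CA1 markers raised. Their mean log2 folds over other nuclei were 0.66 and 0.65, against 1.60 in cluster 7 and 1.19 in cluster 21. Clmp was lower in each of the 4 CA1-like clusters with 100 nuclei or more per library, at -1.43 to -2.61, and Rad51ap2 in each of the 4, at -0.73 to -1.64. Pacsin2, at -0.47 over the class, was at -1.01 to -1.10 within each of the 4. In control its level was 19.5 CPM in cluster 7 and 9.78 CPM in cluster 8, which held most control nuclei. Nrip3 went from -1.36 in cluster 7 (10.8 and 4.26 CPM) to 0.45 in cluster 21 (18.1 and 24.6 CPM), so its direction over the class was not shared by every cluster. In cluster 17, where Nrip3 is high, it had 58.2 and 74.5 CPM, at 0.36 (0.17 to 0.55). Itgav, at 0.44 over the class, was at -0.09 in cluster 7, -0.45 in cluster 17, -0.35 in cluster 21 and -0.91 in cluster 28, all below 0 with intervals that held 0. In CA3-like nuclei Clmp was at -0.34 and -0.09 in clusters 6 and 16, Rad51ap2 at -0.96 and -0.80 and Itgav at -0.98 and -0.96. Pacsin2 was at -0.92 (-1.46 to -0.43) in cluster 6 and 0.62 (-0.15 to 1.42) in cluster 16, so its direction there was not shared. Which nuclei of each library share a cluster was itself set by gene expression.

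**Figure D4:**
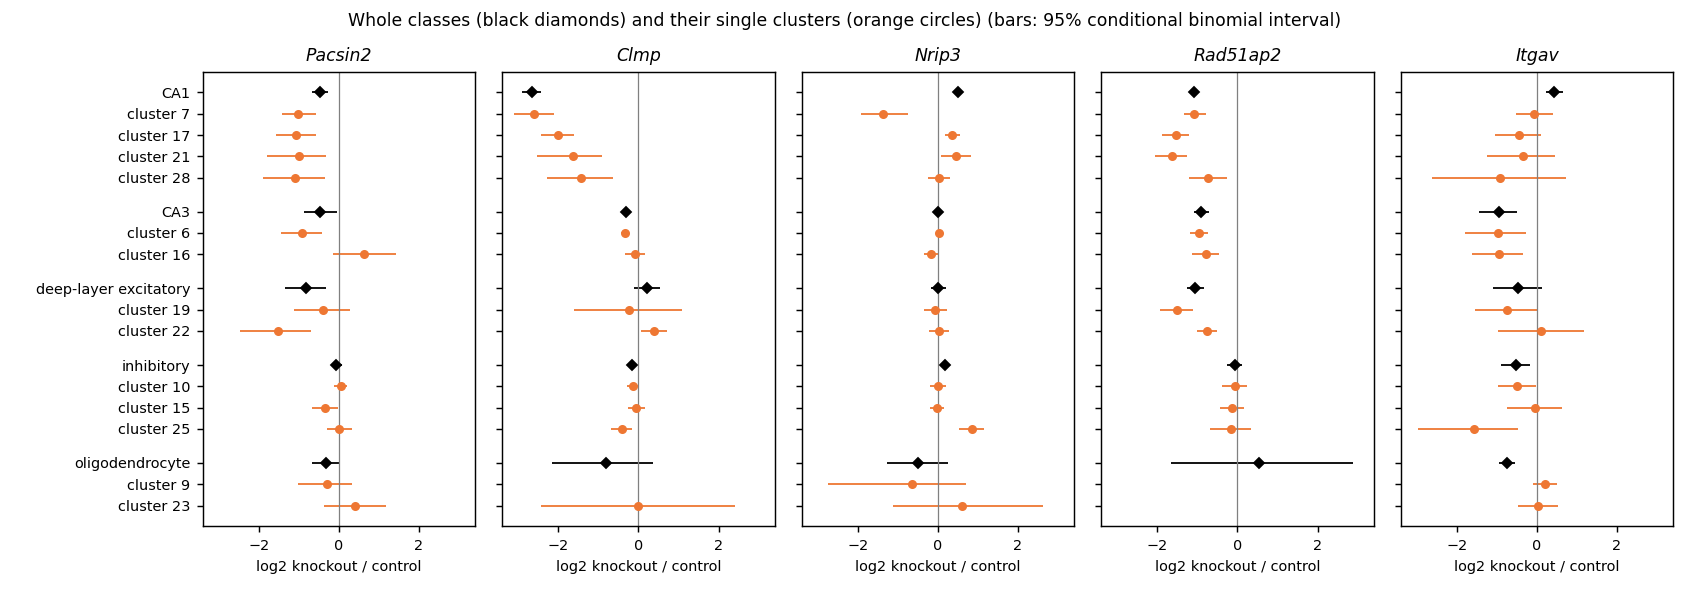
log2 ratio of the library labelled knockout over control in whole classes (black diamonds) and in their clusters with at least 100 nuclei in each library (orange circles), where both had more than 3 UMIs, with 95% conditional binomial intervals. Pacsin2 moves from -0.47 in the whole CA1 class to about -1 in each of its 4 clusters, and Itgav from -0.75 in whole oligodendrocytes to 0.21 and 0.02 in clusters 9 and 23.

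Inhibitory-like nuclei (1140 and 1204), which lie outside the Emx1 lineage, had no gene lower by the size rule among 8788 (0%). Pacsin2 had 1053 and 894 UMIs, for a log2 ratio of -0.07 (-0.20 to 0.06), Rad51ap2 471 and 398 UMIs, at -0.07 (-0.27 to 0.12), and Clmp 1445 and 1149 UMIs, at -0.16 (-0.27 to -0.05). Nrip3 had 1114 and 1113 UMIs, at 0.17 (0.05 to 0.29), and Itgav 174 and 107 UMIs, at -0.53 (-0.89 to -0.18). The sign of Itgav in this class changed after thinning. Over the 3 inhibitory clusters with 100 nuclei or more per library, Rad51ap2 lay between -0.17 and -0.07 and Nrip3 between -0.02 and 0.84, the last in cluster 25, which Lhx6, Hapln1 and Gad2 mark. Other intervals lay wholly below 0, those of Itgav in cluster 25 (29 and 8 UMIs, at -1.57, -2.98 to -0.47) and cluster 10 (-0.50, -0.98 to -0.03), Clmp in cluster 25 (-0.41, -0.68 to -0.15) and Pacsin2 in cluster 15 (-0.35, -0.67 to -0.03).

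In the glial classes the size rule could call only Pacsin2 and Itgav (in radial glia-like nuclei only Itgav), since the other genes lay under the minimum, and it called neither lower. The share of genes so called was 0.106% in astrocyte-like, 0.0739% in oligodendrocyte precursor-like, 0.24% in committed oligodendrocyte precursor-like, 0.951% in oligodendrocyte-like, 0.198% in microglia-like and 0.459% in radial glia-like nuclei. It was 0.454% in Cajal-Retzius-like, 0.344% in cycling progenitor-like and 1.72% in endothelial-like nuclei. There only Pacsin2 in Cajal-Retzius-like and Itgav in endothelial-like nuclei met the minimum, neither was lower, and none of the 5 could be called in cycling progenitor-like nuclei. Where they are high, Pacsin2 and Itgav differed little. Pacsin2 had 820 and 751 UMIs (244 and 276 CPM) in microglia-like nuclei, for a log2 ratio of 0.18 (0.04 to 0.33), and 137 and 140 UMIs in Cajal-Retzius-like nuclei, at -0.02 (-0.37 to 0.33). Itgav had 2185 and 1759 UMIs (230 and 233 CPM) in astrocyte-like nuclei, at 0.02 (-0.08 to 0.11), and 824 and 678 UMIs in microglia-like nuclei, at 0.03 (-0.12 to 0.18). In oligodendrocyte precursor-like nuclei Itgav had 966 and 1014 UMIs, at 0.14 (0.01 to 0.27). In oligodendrocyte-like nuclei it had 623 and 313 UMIs (61.1 and 36.3 CPM), at -0.75 (-0.95 to -0.56). That class, too, was filled unequally, with cluster 9 holding 962 and 228 nuclei and cluster 24 holding 6 and 485. Itgav was at 0.21 (-0.09 to 0.49) within cluster 9 and 0.02 (-0.48 to 0.53) within cluster 23, and had 27.6 CPM in cluster 24. Few UMIs of Clmp and Rad51ap2 were counted in glia, though Clmp reached 17.7 CPM there, against 11.2 CPM in control granule-like nuclei. The Clmp interval lay wholly below 0 in 3 of the 6 glial classes. Among these, Clmp had 37 and 12 UMIs in oligodendrocyte precursor-like and 26 and 4 UMIs in radial glia-like nuclei. The log2 ratios there were -1.52 (-2.63 to -0.59) and -1.80 (-3.92 to -0.42).

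Nuclei of both sexes were compared apart, since by the labels female nuclei came from 1 mouse and male nuclei from 2 in each library. The split divides the pools and makes no replicates. Nuclei of both sexes are part of the granule sums on which the genes were chosen, which made low granule values in each sex likely. In granule-like nuclei the female and male log2 ratios were -2.63 and -2.66 for Pacsin2, -2.13 and -2.37 for Rad51ap2, -1.92 and -2.38 for Nrip3 and -1.97 and -2.22 for Clmp. Itgav was at -1.64 (-2.18 to -1.15) in female and -2.75 (-3.25 to -2.32) in male nuclei, so the size of its difference rested more on the males. Outside the granule class, Clmp in CA1-like nuclei was at -2.95 and -2.48, and Rad51ap2 was 2.13-fold lower in females and 2.01-fold lower in males there. It was at -2.58 and -2.13 in subicular excitatory-like nuclei. The subicular value of Pacsin2 was not shared, at 1.44 (0.71 to 2.27) in female and -0.15 (-0.72 to 0.41) in male nuclei, and its deep-layer value was -1.95 (-3.06 to -1.01) in female nuclei and -0.25 in male nuclei, with an interval that held 0. Itgav in oligodendrocyte-like nuclei was at -1.31 and -0.46.

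The closest relatives of the 5 genes had smaller differences in granule-like nuclei, which choosing the 5 for low values there made likely. Pacsin1, the neuronal syndapin, had 9493 and 4137 UMIs, for a log2 ratio of -0.75 (-0.80 to -0.69), and Pacsin3 had 14 and 7 UMIs. Cxadr, the relative of Clmp, was at -0.02 (-0.12 to 0.08), Nrip1 at -0.34, Nrip2 at -0.62 and Rad51ap1 at 0.24 (-0.13 to 0.61). Of the beta chains that pair with Itgav, Itgb1 was at 0.07 (-0.01 to 0.16), Itgb5 at -0.31 (-0.77 to 0.13) and Itgb8, which pairs with alpha v alone, at -0.73 (-0.83 to -0.63), and Itgb3 had 24 and 10 UMIs. In these nuclei 179 of the 8451 genes (2.12%) were higher by the size rule and 88 (1.04%) lower. Among 24 other integrin chains, 6 met the minimum of 50 UMIs and 10 CPM, of which Itga6 was higher (1.13) and Itga7 lower (-1.56). Of 25 ligands and adaptors of alpha v integrins 9 met it, of which Tgfb2 was lower (-1.12, 27.9 and 12.8 CPM) and Fbn1 higher (1.01). Rarb (1.42) and Thrb (1.06) were higher among 12 of the nuclear receptor list. Neither direction passed 2-fold for the 21 other genes of membrane remodelling and the 5 of junctional adhesion that met the minimum. With so few genes, that lies near the shares over all genes. The medians of these 5 lists without the chosen genes ran from -0.14 to 0.14, against 0.03 over 18138 genes with at least 20 UMIs.

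Genes beside them in the genome had smaller differences, which choosing the 5 for low values made likely. Of 20 flanking coding genes (2 on each side, by the order of GRCm38 RefSeq), 11 met the minimum and none passed 2-fold. Over all genes 1.04% were lower and 2.12% higher, so none among 11 lies near those shares. The log2 ratios lay between -0.33 for Arfgap3, next to Pacsin2, and 0.60 for Scn3b, near Clmp. The intervals of 5 of the 11 lay wholly below 0, those of Arfgap3, Tmem9b (-0.20), Smc6 (-0.18), Cyria (-0.15) and Fam171b (-0.06). Those of Scn3b, Hspa8 (0.31) and Gramd1b (0.09) lay wholly above 0. Dennd5a, beside Nrip3, was at -0.00 and Zc3h15, beside Itgav, at -0.02. Transcripts that overlap the genes on the other strand had few counts. Gm13684, which overlaps Itgav, had 68 and 9 UMIs, for a log2 ratio of -2.40 (-3.66 to -1.46), and Gm48293, which overlaps Clmp, had 36 and 5 UMIs. How strand was used in counting is not given in the sources used here, so counts of a gene and of its antisense partner may not be separable.

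The 5 genes did not share 1 pattern across classes, though some pairs were alike. The comparison used 34 points (17 classes in each of 2 libraries, which share libraries and depth), among them the granule points on which the genes were chosen. Pearson's r of log2(CPM + 1) between pairs of the genes ran from -0.76 (Itgav and Rad51ap2) to 0.70 (Nrip3 and Rad51ap2). Among 13097 genes compared, the 3 most like Pacsin2 were Gusb (0.85), Fam210a (0.82) and Zup1 (0.81), and those most like Clmp were Lamb1 (0.81), Gm16070 (0.77) and Fads3 (0.77). Cpne4 (0.86), Slc6a7 (0.85) and Cabp1 (0.85) were most like Nrip3. Ppfia3 (0.90), Unc80 (0.88) and Gm33228 (0.88) were most like Rad51ap2, and Gm13684 (0.97), Zcchc24 (0.92) and Decr1 (0.92) most like Itgav. These genes did not all go with their partners in granule-like nuclei, where Gusb was at -0.02, Lamb1 at 0.38 and Ppfia3 at 0.01, while Cpne4 was at -0.91, Cabp1 at -1.40 and Slc6a7 at 1.10.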

How the data were processed

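Nuclear RNA of 2 pooled hippocampal libraries was counted by the authors with Cell Ranger 8.0.1 on build mm39, per the file headers and the submitters' processing notes, and the deposited values are whole UMI counts, not normalized. Nuclei needed at least 500 detected genes and at most 5% mitochondrial UMIs. Doublets were called per library by the method of Scrublet, reimplemented with exact neighbours at an expected rate of 0.1, and left out. Both libraries were clustered together with Python 3.11.15, scanpy 1.11.5, igraph 0.11.9 and leidenalg 0.10.2 (3000 variable genes, 30 components, 15 neighbours, Leiden resolution 1, no batch correction). Left out of the clustering were the 5 genes, mitochondrial and Y-linked genes, Tsix and Xist. Clusters took the name of the best of 23 marker sets, and 6.78% and 7.26% of nuclei stayed unnamed. These include 1 cluster kept unnamed for its depth, over 3 times the median of all nuclei, by a rule set after it was seen. UMIs were summed per class and library, and log2 ratios had 0.5 UMI added to each sum. Intervals are exact Poisson, conditional binomial or Clopper-Pearson. Nuclei were called male with at least 1 UMI of the Y-linked genes Eif2s3y, Ddx3y, Kdm5d and Uty and none of Xist, and female with 2 or more of Xist and none of the others. The size rule was tried on simulated counts with counting error only. The changed genes there had more counts than the minimum and differences well beyond 2-fold. That trial says nothing of calls near 2-fold or of differences between libraries. The genes, the marker and gene lists and the tests were chosen with earlier results of these data known. Genes named are the 5 chosen, Cic, their closest relatives, list genes past the size rule in granule-like nuclei (up to 6 per list) and the 3 most similar patterns; others are named as chosen after their values were seen. RefSeq windows and gene order are those of GRCm38 and were used for no count. Hilar mossy-like and ependymal-like nuclei were too few in a library to be summed. 1 further gene list is not reported here.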

Additional observations from a re-analysis of the deposited data

How the results depend on the processing

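No paired analysis was possible because each group has 1 sample. Of 860 log2 ratios recomputed under other settings (single clusters apart), 773 stayed within their counting interval and 87 moved beyond it. The sign changed in 85, none of which met the size rule before the split or change of setting; in 83 of these the original interval held 0, and the other 2 were Pacsin2 in male subicular nuclei (-0.15) and Itgav in inhibitory-like nuclei after thinning (0.07). The 53 in granule-like nuclei all stayed beyond 2-fold, which choosing the genes on these same granule values made likely. Thinned to 2000 UMIs, the granule ratios were -2.42 for Pacsin2, -1.53 for Clmp, -1.67 for Nrip3 and -1.94 for Rad51ap2. Male nuclei gave -2.38 for Nrip3, -2.37 for Rad51ap2 and -2.75 for Itgav, and female nuclei -1.64 for Itgav. With the microglia level subtracted, Clmp was at -4.57 and Nrip3 at -3.16. In the library labelled knockout that level was above the lowest class for both genes, so more than the lowest level was taken off. With the lowest class subtracted (added after seeing the data) Nrip3 was at -2.50. Within cluster 2 alone, a comparison chosen after seeing the data, Pacsin2 was at -1.35, Clmp at -2.69, Nrip3 at -1.69 and Itgav at -0.70, and Rad51ap2 reversed to 1.06; the cause was not tested. The minimum set the counts: 179 genes at least 2-fold higher in dentate granule-like nuclei became 549 at 20 UMIs with no CPM minimum and 2725 with no minimum, and 88 genes at least 2-fold lower in dentate granule-like nuclei became 368 and 2641. The 10 combinations of gene and class lower by the size rule became 7 to 14. In immature granule-like nuclei Rad51ap2 passed the size rule as higher after thinning, at 1.29. Median-of-ratios scaling shifted all log2 ratios by -0.11 in CA1-like and -0.13 in CA2-like nuclei, and by under 0.1 elsewhere. With log2(CPM + 10), 0 of the 3 genes most like Rad51ap2 were shared. Few UMIs of Rad51ap2 and Clmp were counted in glia, which limits their ratios there.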
